A study of Arabidopsis thaliana with 6 samples.

Results

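The serine carboxypeptidase-like (SCPL) genes of Arabidopsis thaliana were followed in shoots of seedlings grown in darkness in canister hardware, flown or kept on the ground. Members were all genes whose single-gene probe set carries a symbol made of SCPL and a number in the platform annotation, which gave 29 genes of 13355 genes named on the array, each with 1 probe set. The current RefSeq annotation holds 51 genes of this family, so 22 were not analysed here. The rule itself names no expression value, although the family was picked with earlier results of these data known.

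Transcripts were measured in total RNA on Affymetrix ATH1-type arrays. The labels assign 3 arrays to spaceflight on the space shuttle and 3 to a ground control, with the replicate numbers 2, 3 and 4 in each group. All seedlings were of the Landsberg (LER-0) ecotype with no transgene or mutation named, were placed in RNAlater on removal from the hardware, and were sampled as shoots. The sources used here give neither the age of the seedlings nor the dishes behind each array. The p-values therefore reflect the spread among 3 arrays a group, and whether these are separate biological samples is not stated. The sample titles carry an unexplained letter, f in flight and h on the ground, whose meaning cannot be told apart from flight itself.

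SCPL proteins are built like serine carboxypeptidases, hydrolases with a catalytic serine, aspartate and histidine that clip amino acids from the C-terminus of proteins. They pass through the secretory pathway to the vacuole or the cell wall. The family is divided into clades. Clade I contains enzymes that have become acyltransferases and use glucose esters such as sinapoylglucose to make sinapate esters and related compounds. Clade II includes BRS1, which was found as a suppressor of a brassinosteroid receptor mutant, and clade III holds the relatives of the vacuolar carboxypeptidase Y of yeast.

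Coverage differed between the clades. A gene is called measured here if it had a single-gene probe set with a symbol, and 8730 of the 22746 probe sets carried no symbol. Of 21 clade I genes 4 were measured, of 25 clade II genes 21 and of 5 clade III genes 4. Genes counted as not measured can still have a probe set without a symbol. The best characterised clade I acyltransferase genes, SNG1 and SNG2, and BRS1 itself had no single-gene probe set with a symbol and were not analysed here. SCPL36, SCPL37 and SCPL39 share their 2 probe sets with other genes and were left out of the members.

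The medians of the 6 arrays lay between 2.15 and 2.24 on the log2 scale, over 22746 probe sets. The name seed storage genes is used here for 3 seed genes, PAP85, OLEO3 and AT3G01570. Averaged over these 3, ground replicate 2 read 1.78, ground replicate 3 read 8.44 and ground replicate 4 read 8.53. The flight arrays read 2.46, 1.81 and 4.96 for replicates 2, 3 and 4, so arrays of the same group differed in seed transcripts. The hybridization spike-ins averaged 9.61 in ground replicate 4, against 10.13 to 10.20 elsewhere. None of 13 shoot markers and 7 xylem markers had a single-gene probe set with a symbol in the annotation used (0 of each). The labelled tissue was therefore not checked from its own markers. Of 11 root markers 2 were measured, the root hair expansins EXPA7 and EXPA18, and their means over all 6 arrays were 1.19 and 1.54, below the array medians.

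Flown seedlings had higher transcript levels of the clade III genes SCPL48 and SCPL50 than ground seedlings, and the other 27 SCPL genes did not pass the test. SCPL48 was 3.75-fold and SCPL50 1.78-fold higher in flight. Of 29 members 2 were called higher, 6.90%, where 4.13% of all probe sets were called higher, and 0 were called lower, where 1.82% of all probe sets were (limma, Benjamini-Hochberg adjusted p under 0.05, over all probe sets tested). At an unadjusted p under 0.05 in limma, 6 members were higher (20.7%) and 2 lower (6.90%), against 12.5% and 8.49% of all probe sets. The groups did not overlap in 8 members, which is 27.6% of the members beside 26.0% of all probe sets. Of these, 6 were higher (20.7%) and 2 lower (6.90%) in flight, beside 14.2% and 11.8% of all probe sets. The share called and the share without overlap in either direction were near those of all probe sets. Among all named genes, 3.47% were called higher. At an unadjusted p under 0.05 in limma, 10.8% of them were higher and 7.88% lower, and without overlap 12.4% were higher and 12.1% lower. The higher shares of the members lay above these and the lower shares below, on 6 genes or fewer each. These counts were not tested and do not set the family apart. Its median log2 change was 0.022, against -0.035 over all named genes. Centring each array on its median or on its spike-ins moved both values together, to -0.035 against -0.092 and to -0.13 against -0.19, so the sign of the family median depends on the scaling.

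The number of calls changed with any 1 array left out, which also leaves fewer arrays to the test. When flight replicate 2, flight replicate 3 or ground replicate 4 was left out, 0 members were called higher. Without flight replicate 4 SCPL35 alone was called, and without ground replicate 3 SCPL26 alone. Without ground replicate 2, SCPL29, SCPL34, SCPL48 and SCPL50 were called higher and SCPL47 lower. The share of all probe sets called higher ranged from 0.827% to 4.94% over the same omissions.

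**Figure D1:**
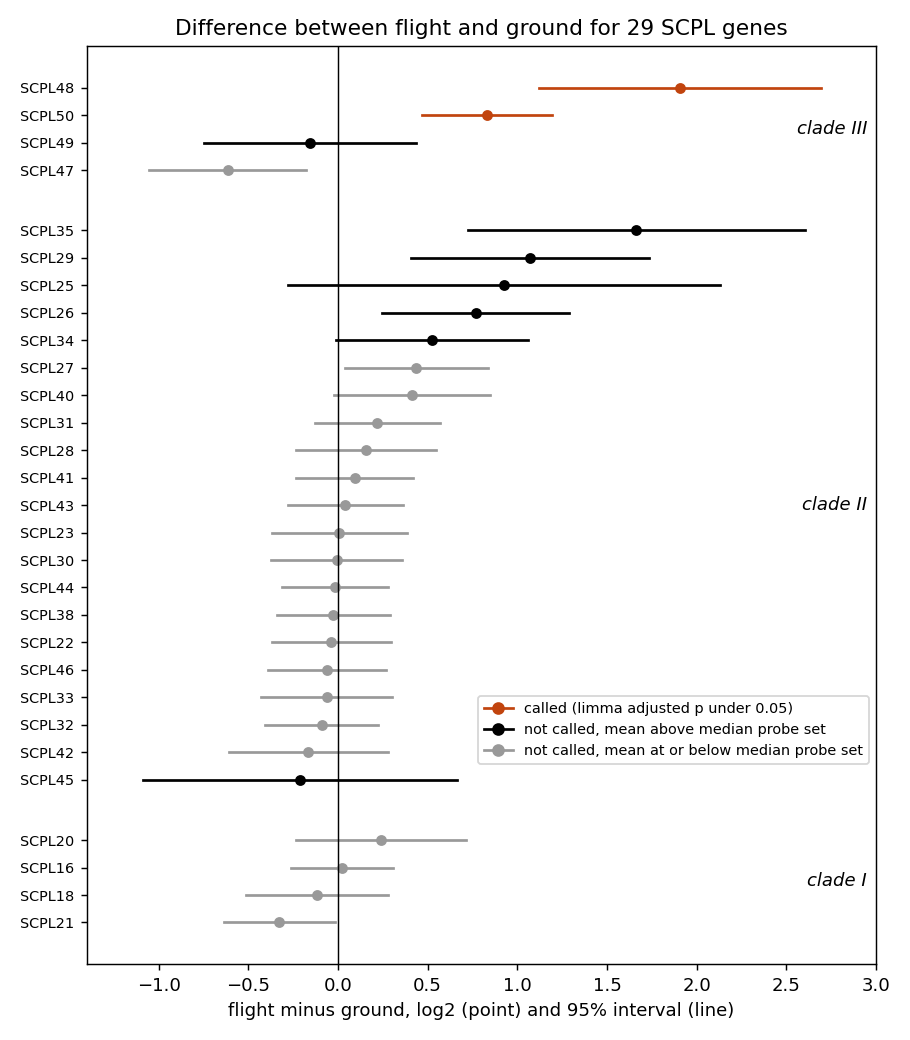
Difference between flight and ground for each of the 29 SCPL genes, grouped by clade, with the log2 change on the horizontal axis (points) and its 95% interval from limma (lines). SCPL48 and SCPL50 are the 2 called genes. Most of the members drawn in grey, whose mean lies at or below that of the median probe set, sit close to 0.

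SCPL48 (AT3G45010), a member of the carboxypeptidase Y-like clade, read 5.70, 5.46 and 5.60 in flight replicates 2, 3 and 4 and 4.50, 3.24 and 3.301 in ground replicates 2, 3 and 4 (log2 expression values). The 3 flight arrays lay close together, and all were above the highest ground array by at least 0.96. Ground replicate 2 was well above the other ground arrays. The means were 5.59 ± 0.12 in flight and 3.68 ± 0.71 on the ground (SD, n = 3), a log2 change of 1.91 (SE 0.33, 95% interval 1.12 to 2.69) with an adjusted p of 0.0238 in limma. A different number of cells of a type that makes the transcript and a different amount of transcript per cell cannot be told apart in RNA of whole shoots. This holds here and for the genes below.

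The ground array with the highest SCPL48 value, replicate 2, was the ground array with low seed storage transcripts. In flight, SCPL48 stayed between 5.46 and 5.70 while the seed storage mean ran from 1.81 to 4.96. With the comparison limited to the arrays low in seed storage transcripts (flight replicates 2 and 3, ground replicate 2), the log2 difference was 1.08 (limma adjusted p 0.0925, with the lone ground array assumed to vary like the flight arrays). With the seed storage mean as a covariate it was 1.43 (limma adjusted p 0.0325). The part of seed transcripts in the SCPL48 difference was not tested beyond these values. The difference was 1.69 to 2.32 with any 1 array left out, and it passed the threshold only without ground replicate 2 (limma adjusted p 0.00174 to 0.0895). With an unmoderated equal-variance test the adjusted p of SCPL48 was 0.176, and that test called 0 of all probe sets.

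SCPL50 (AT1G15000), also of clade III, read 6.76, 6.82 and 6.90 in flight replicates 2, 3 and 4 and 6.12, 5.76 and 6.11 in ground replicates 2, 3 and 4. Every flight array lay above every ground array, with a gap of 0.64, and ground replicate 2 did not stand apart from ground replicate 4. The log2 change was 0.83 (SE 0.15, 95% interval 0.47 to 1.19), from 5.996 ± 0.21 on the ground to 6.83 ± 0.071 in flight (SD, n = 3), with an adjusted p of 0.0277 in limma. The change was smaller than that of SCPL48, and the flight arrays were close together in both genes. Centring on the spike-ins gave 0.68 with a limma adjusted p of 0.264, the seed storage covariate gave 0.78 with 0.0918, and flight replicates 2 and 3 against only ground replicate 2 gave 0.67 with 0.210. With the change itself unaltered, the adjusted p was 0.0557 in limma with a replicate block. It was 0.129 with an unmoderated equal-variance test, which called 0 of all probe sets. Any 1 array left out gave 0.71 to 0.89, and the threshold was passed only without ground replicate 2 (limma adjusted p 0.0287 to 0.107).

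The other measured genes of clade III did not pass. SCPL49 (AT3G10410), which the annotation also names carboxypeptidase Y, read 4.91, 4.66 and 4.95 in flight replicates 2, 3 and 4 and 5.48, 4.51 and 4.999 in ground replicates 2, 3 and 4. The flight values lay inside the ground range. Its log2 difference was -0.15 with a 95% interval of -0.74 to 0.43 (limma adjusted p 0.787), which leaves out a change as large as that of SCPL48. It was -0.40 without ground replicate 3 and 0.086 without ground replicate 2. With the seed storage covariate it was -0.41 (limma adjusted p 0.464). For flight replicates 2 and 3 against only ground replicate 2 it was -0.69. SCPL47 (AT5G22980) read 0.96, 1.03 and 1.21 in flight replicates 2, 3 and 4 and 1.33, 1.88 and 1.84 in ground replicates 2, 3 and 4. All of these values were below the array medians, with the highest in the ground arrays that had high seed storage transcripts. Its log2 difference was -0.61 (SE 0.19, limma adjusted p 0.114), and a trended and robust variance prior gave an adjusted p of 0.0453.

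**Figure D2:**
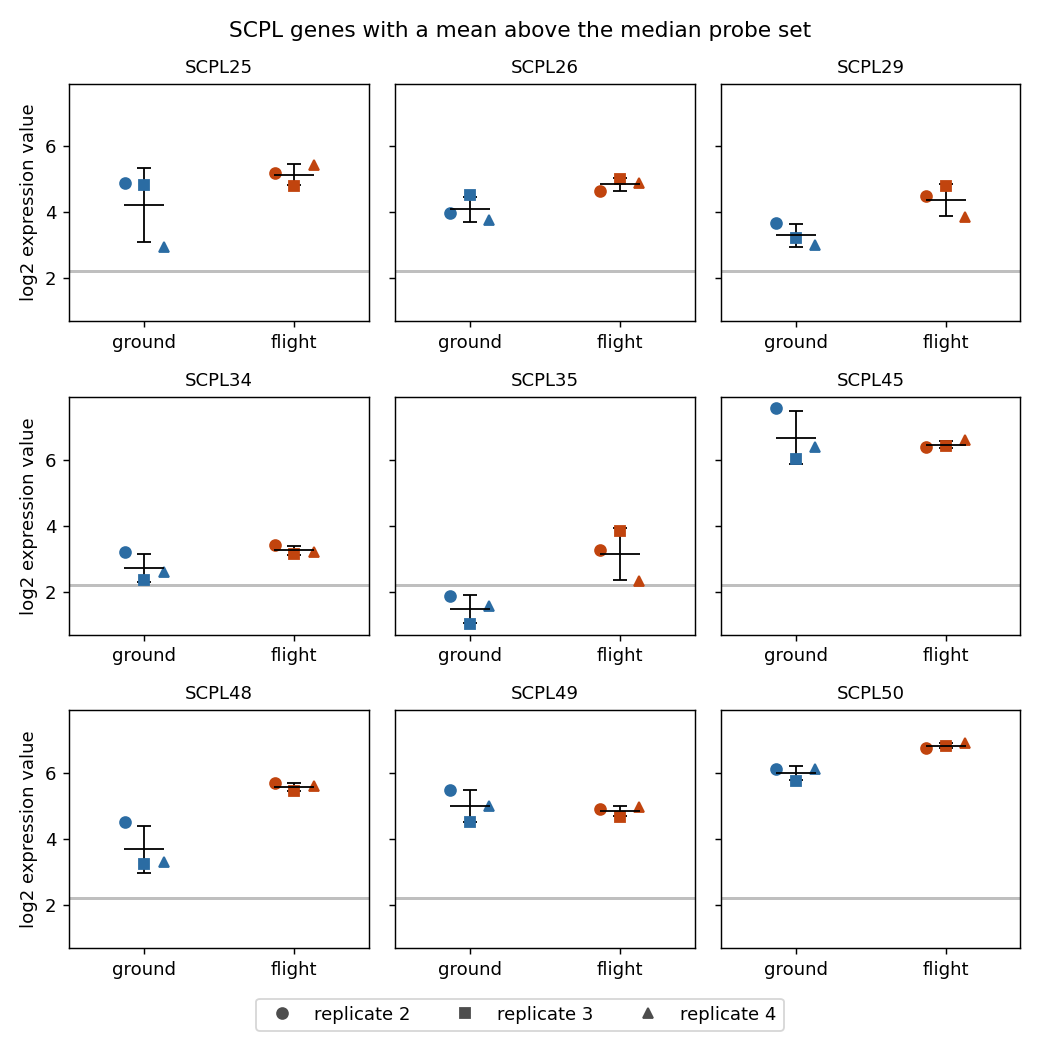
Log2 expression values of the 9 SCPL genes whose mean over all arrays exceeds that of the median probe set, in 3 ground (blue) and 3 flight (orange) arrays, with marker shapes for replicate numbers, the group mean ± SD in black, and the range of array medians as a grey band. The flight and ground points of SCPL48, SCPL50, SCPL35, SCPL29 and SCPL26 do not overlap, and the ground points of SCPL45 and SCPL25 are spread by single arrays. SCPL35 is among the 9 only through its flight values.

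No clade II gene was called in limma (0 of 21). At an unadjusted p under 0.05, 4 were higher (19.05%) and 0 lower, beside 12.5% and 8.49% of all probe sets, and the median log2 change of the clade was 0.042. The members with the largest differences lay above 0. SCPL35 (AT5G08260) read 3.28, 3.84 and 2.31 in flight replicates 2, 3 and 4 and 1.86, 1.02 and 1.57 in ground replicates 2, 3 and 4. The groups did not overlap, flight replicate 4 was the lowest flight array, and all ground values were below the array medians. The log2 difference was 1.66 (SE 0.40, 95% interval 0.72 to 2.602), with a limma adjusted p of 0.0597. It passed with the trended and robust prior (limma adjusted p 0.0217) and without flight replicate 4 (0.0381), and it was 1.21 with the seed storage covariate (0.158). For flight replicates 2 and 3 against only ground replicate 2, the arrays low in seed storage transcripts, the log2 difference was 1.70. With dim probe sets left out the limma adjusted p was 0.0346. SCPL35 met that filter only through its flight values, so this pass gives no separate support.

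SCPL29 (AT4G30810) read 4.48, 4.79 and 3.84 in flight replicates 2, 3 and 4 and 3.68, 3.22 and 3.01 in ground replicates 2, 3 and 4. As in SCPL35, flight replicate 4 was the lowest flight array and ground replicate 2 the highest ground array, and the gap between the groups was 0.17. The log2 difference was 1.07 (SE 0.28, 95% interval 0.41 to 1.74), with a limma adjusted p of 0.0769. With the seed storage covariate it was 0.70 (limma adjusted p 0.178), and without ground replicate 2 it was 1.26 (0.0478). For flight replicates 2 and 3 against only ground replicate 2 the log2 difference was 0.96.

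**Figure D3:**
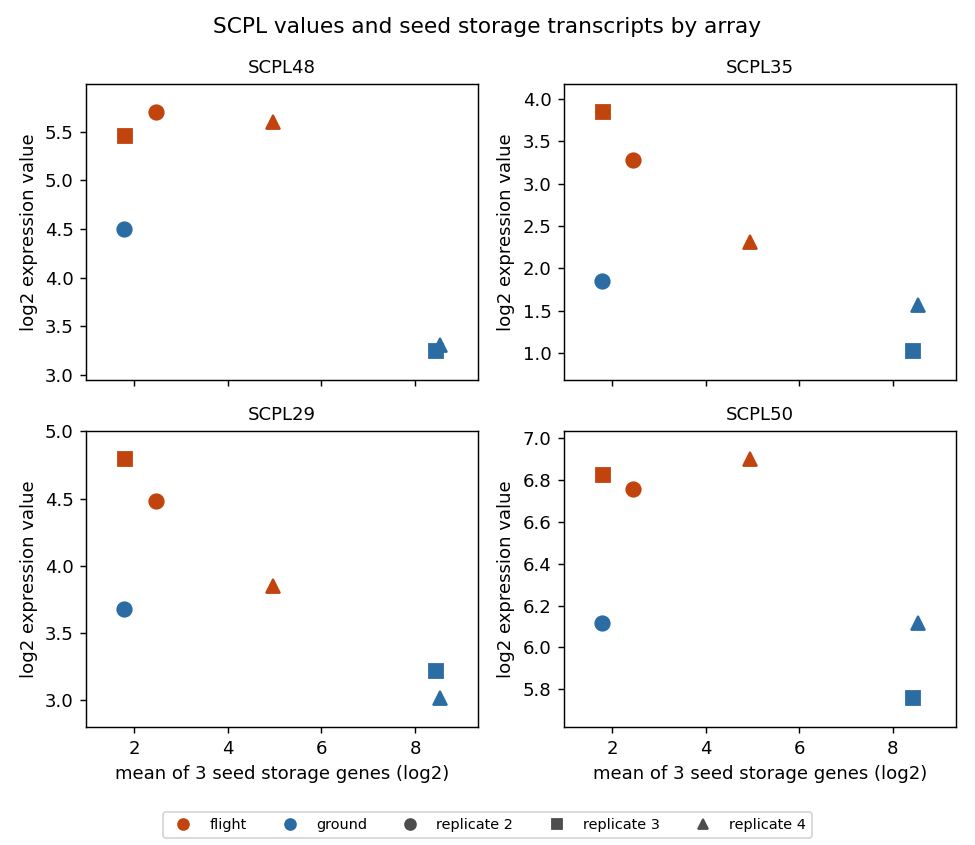
Log2 expression values of SCPL48, SCPL35, SCPL29 and SCPL50 on each of the 6 arrays (vertical axes, each with its own range) against the mean log2 value of 3 seed storage genes on the same array (horizontal axis), with flight in orange, ground in blue and a marker shape for each replicate number. Ground replicates 3 and 4 lie at the right at 8.44 and 8.53. At the left, ground replicate 2 lies below flight replicates 2 and 3 in all 4 genes, which follows from groups that do not overlap.

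The remaining clade II genes that stood out were picked after their values were seen. SCPL26 (AT2G35780) read 4.64, 5.03 and 4.90 in flight replicates 2, 3 and 4 and 3.97, 4.52 and 3.78 in ground replicates 2, 3 and 4. Its groups did not overlap, with a gap of 0.13, and its log2 difference was 0.77 (SE 0.22, limma adjusted p 0.0998). Without ground replicate 3, the highest ground array for SCPL26, it passed with a log2 difference of 0.98 (limma adjusted p 0.0389). SCPL28, the gene next to SCPL26 in the RefSeq order, had a log2 difference of 0.16 (95% interval -0.24 to 0.55) and read below the array medians on all 6 arrays. The difference between these neighbours was not tested.

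SCPL25 (AT3G02110) read 5.20, 4.81 and 5.42 in flight replicates 2, 3 and 4 and 4.90, 4.83 and 2.94 in ground replicates 2, 3 and 4. Ground replicate 4, the array with the low spike-in mean, stood far below the others, which overlapped. The log2 difference was 0.92 with a 95% interval of -0.28 to 2.13 (limma adjusted p 0.372), and it was 0.28 without ground replicate 4. With each array centred on its spike-ins it was 0.77 (limma adjusted p 0.353).

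SCPL45 (AT1G28110) read 6.37, 6.40 and 6.58 in flight replicates 2, 3 and 4 and 7.57, 6.03 and 6.39 in ground replicates 2, 3 and 4. Ground replicate 2 was the highest array for SCPL45, as it was for SCPL49, while the flight arrays lay within the ground range. The log2 difference was -0.21 with a 95% interval of -1.09 to 0.66 (limma adjusted p 0.806). It was 0.24 without ground replicate 2 and -0.72 with the seed storage covariate (limma adjusted p 0.246). For flight replicates 2 and 3 against only ground replicate 2 it was -1.19. SCPL34 (AT5G23210) read from 3.13 to 3.40 in flight and from 2.37 to 3.19 on the ground, again with its highest ground value in replicate 2. Its log2 difference was 0.53 (limma adjusted p 0.246), with a 95% interval of -0.010 to 1.06.

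**Figure D4:**
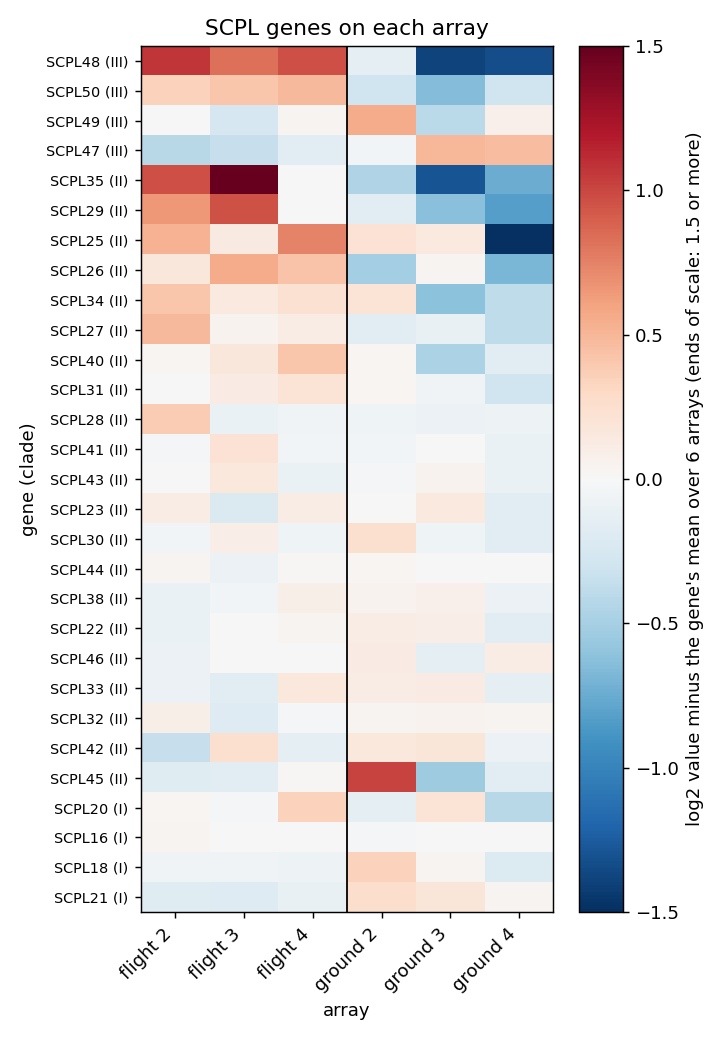
Deviation of each SCPL gene's log2 value from its own mean over 6 arrays (colour), with genes and their clade in rows and arrays in columns, the 3 flight arrays left of the black line. SCPL48 and SCPL50 are red on all 3 flight arrays and blue on the ground, except that SCPL48 is near white in ground replicate 2. SCPL35 and SCPL29 are red in flight replicates 2 and 3 and near white in flight replicate 4. SCPL45 is deep red in ground replicate 2, and most other genes are pale on every array.

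Most SCPL genes read low in these shoots. In 20 of the 29 members the mean over all arrays was at or below 2.23, the median over all probe sets, and in 18 of them every array was below the lowest array median. Single values of these 20 genes ran from 0.96 to 2.23. No detection calls were used here, so it cannot be said which of them were expressed, and a probe set near the bottom of the scale can understate a change. Their absolute log2 differences ran from 0.0061 to 0.61, and 16 of the 20 were under 0.25. The differences over 0.25 were those of SCPL47 and SCPL21 downward and SCPL27 and SCPL40 upward.

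SCPL27 (AT3G07990) read 1.73 to 2.16 in flight and 1.29 to 1.56 on the ground, with groups that did not overlap and a log2 difference of 0.44 (SE 0.17, limma adjusted p 0.197). SCPL40 (AT3G63470) had a log2 difference of 0.41 (limma adjusted p 0.259) with its lowest flight and highest ground values both at 1.84. The neighbouring genes SCPL22 and SCPL23 had log2 differences of -0.037 and 0.0084. SCPL41, which is known to affect membrane lipids, and SCPL42, with 2 genes between them, had log2 differences of 0.094 and -0.17. None of these neighbours passed the test, with limma adjusted p of 0.686 or above.

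All 4 measured clade I genes were among those that read low, and 0 of them were called in limma, with 0 higher and 1 lower at an unadjusted p under 0.05, beside 12.5% and 8.49% of all probe sets. SCPL21 (AT3G25420) read 1.202, 1.18 and 1.27 in flight replicates 2, 3 and 4 and 1.64, 1.57 and 1.42 in ground replicates 2, 3 and 4. Its groups did not overlap, and its log2 difference was -0.33 (SE 0.13, limma adjusted p 0.212). SCPL20 had a log2 difference of 0.24, SCPL18 of -0.12 and SCPL16 of 0.022. SCPL16 varied least of all members, by 0.066 over the 6 arrays.

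Over the 27 members not called, the 95% interval of the difference lay within a log2 change of 1 in either direction for 20. The other 7 were SCPL25, SCPL26, SCPL29, SCPL34, SCPL35, SCPL45 and SCPL47, for which a change of that size could not be left out.

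**Figure D5:**
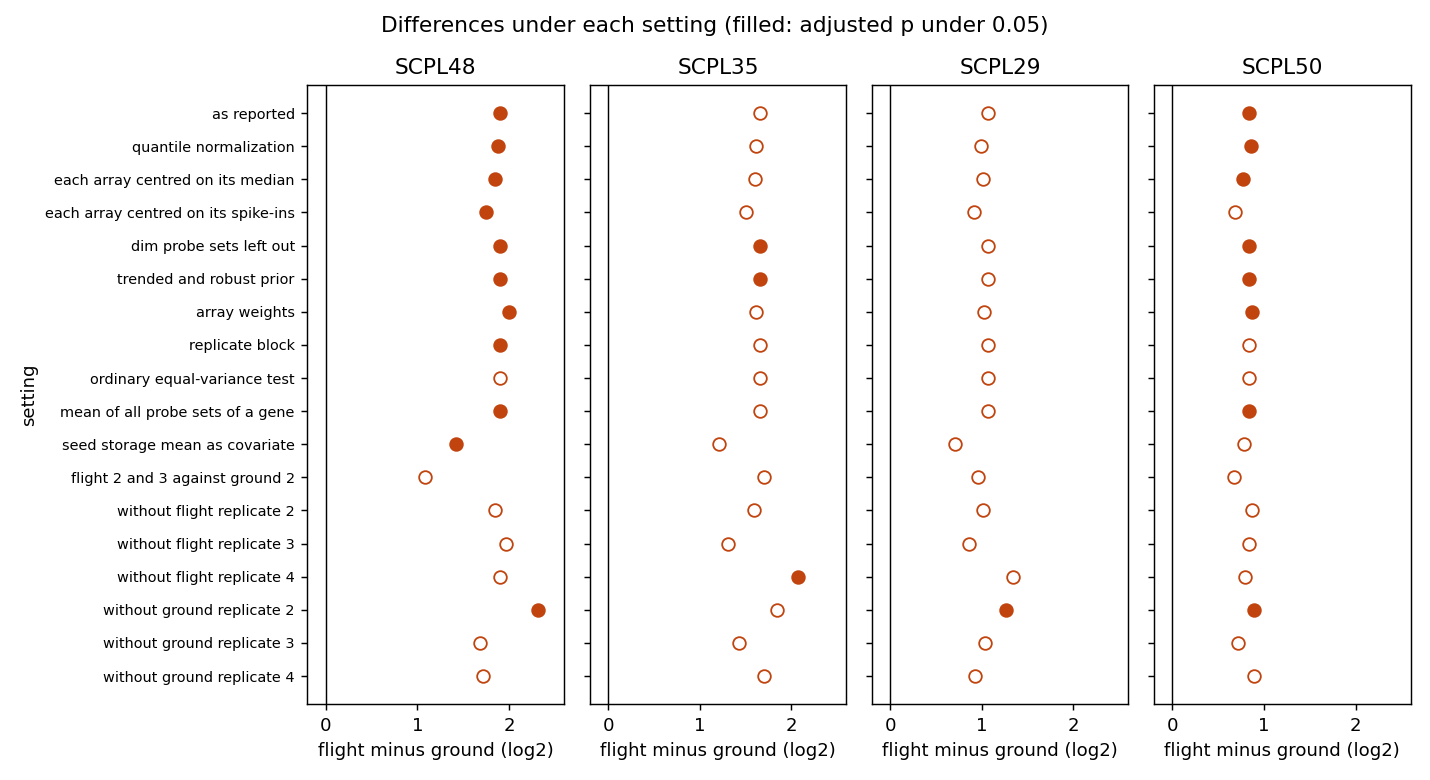
Log2 difference between flight and ground (horizontal axes) for SCPL48, SCPL35, SCPL29 and SCPL50 as reported and under each alternative setting (rows), with filled points where the adjusted p was under 0.05. All points lie above 0, which the lack of overlap between the groups fixed in advance for the rows that leave out arrays. Few points are filled among those rows.

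Genes that act beside the SCPL proteins were described from lists, with measured again meaning a single-gene probe set with a symbol. Of 24 genes of sinapate ester and phenylpropanoid synthesis, which supplies the substrates of clade I acyltransferases, 5 were measured. HCT (AT5G48930), an acyltransferase of another family, was the only call among them (1 of 5, 20%), where 4.13% of all probe sets were called higher. It read 5.91 to 6.25 in flight and 5.26 to 5.37 on the ground, a log2 difference of 0.74 (SE 0.14, limma adjusted p 0.0329). The HCT call was not followed under the alternatives. The median log2 change of the 5 genes was -0.0029. UGT84A1 and UGT84A3, of the glucosyltransferase group that makes hydroxycinnamoyl glucose esters, had log2 differences of 0.12 and -0.30 (limma adjusted p 0.831 and 0.288). Of 25 brassinosteroid genes 1 was measured, the receptor gene BRL1, with a log2 difference of 0.016 (limma adjusted p 0.978).

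Of 27 other secreted or vacuolar proteases 13 were measured and 0 called in limma, with a median log2 change of -0.023. At an unadjusted p under 0.05 there were 2 higher (15.4%) and 3 lower (23.1%), beside 12.5% and 8.49% of all probe sets. BETA-VPE (AT1G62710), a vacuolar processing enzyme of seeds singled out after its values were seen, read 2.67, 3.42 and 4.72 in flight replicates 2, 3 and 4 and 3.49, 8.56 and 8.33 in ground replicates 2, 3 and 4. It was thus high in the ground arrays with high seed storage transcripts, and its log2 difference was -3.19 (SE 1.32, limma adjusted p 0.225). GAMMA-VPE, the related enzyme of vegetative vacuoles, had a log2 difference of 0.33 (limma adjusted p 0.380).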

How the data were processed

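Per the labels' protocols, RNA from a plant column kit went through whole-transcriptome amplification and biotin labelling. The values were taken as log2 expression values as deposited by the authors, on a base read from their range of 0.63 to 12.98. Per the submitters' processing notes the tools were RMA, PLIER and MAS5. The sources used here do not tell which made the table, or with what background correction. Array medians lay close together, so the values were not normalized again.

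After removal of 64 control probe sets, 22746 probe sets were compared between 3 flight and 3 ground arrays in a two-sided moderated test without covariates (limma 3.58.1, lmFit then eBayes, under R 4.3.3), with Benjamini-Hochberg adjustment over all probe sets. SE and intervals are limma's moderated values. The procedure was tested on simulated data. Of the probe sets, 13513 carried 1 gene symbol, 503 several and 8730 none. SCPL symbols are written in capitals, and current names are from RefSeq (TAIR10.1), whose gene order gave neighbours. Clades were assigned by gene number from background knowledge.

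The members and lists were chosen with earlier results of these data known. Every array value is given for members called or with an absolute log2 change of at least 1. Others picked after their values were seen are given by array values, by ranges or by the difference alone. Called members of the comparison lists are named. Alternatives were other normalizations, a filter on dim probe sets, other variance models, a replicate block, left-out arrays, a seed storage covariate and other thresholds. Precision is limited by the number of arrays. No sequences are printed. Plots used matplotlib 3.10.9 (Python 3.11.15).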

Additional observations from a re-analysis of the deposited data

How the results depend on the processing

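The 4 genes with every array value in the report by rule (SCPL48, SCPL50, SCPL35 and SCPL29) kept a log2 difference above 0 under all alternatives run. Their groups did not overlap, so leaving out arrays could not turn the sign. Other variance priors and thresholds leave the difference itself unaltered, so the constant sign is little support. With all arrays kept and the threshold at 0.05, SCPL48 passed in 9 of 10 alternatives and SCPL50 in 6 of 10, and with 1 array left out each passed in 1 of 6. The number of SCPL genes called higher, 2 as reported, was 1 when the seed storage covariate was added, 1 after spike-in centring, 0 when the comparison held just flight replicates 2 and 3 and ground replicate 2, 0 at an adjusted p under 0.01 and 5 at one under 0.1. It was 3, with SCPL35 added, with the trended and robust prior and when dim probe sets were left out, a filter that SCPL35 met only through its flight values. It was 2 with quantile normalization, median centring, array weights and averaging of probe sets by gene. It was 0 with an ordinary equal-variance test per probe set, which called 0 of all probe sets. It was 0 to 4 with 1 array left out. The replicate block called 1, SCPL48, with SCPL50 at a limma adjusted p of 0.0557. Same-numbered arrays deviated together with correlations of 0.20, -0.026 and 0.27 for numbers 2, 3 and 4, and 2 of 3 flight arrays correlated best with their own number. With so few arrays these values cannot settle whether the replicate numbers pair the arrays. The number called lower, 0 as reported, was 1 with the trended and robust prior and 0 to 1 with 1 array left out. The median log2 change of the members, 0.022 as reported, was 0.069 after quantile normalization, -0.035 after median centring, -0.13 after spike-in centring, which moved the median of all named genes from -0.035 to -0.19, and 0.0014 to 0.099 with 1 array left out. It was 0.83 with dim probe sets left out, a filter that kept 9 of the 29 members and so describes another set of genes. All probe sets called higher numbered 939 as reported, 415 with the seed storage covariate, 470 after spike-in centring and 182 and 1532 at the stricter and looser thresholds. The causes of these shifts were not tested.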

Other observations

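The 2 probe sets that the annotation assigns to several genes, SCPL genes among them, were not part of the comparison above. The probe set shared by SCPL36 and SCPL37 read 1.12, 1.30 and 1.55 in flight replicates 2, 3 and 4 and 0.92, 1.23 and 1.22 in ground replicates 2, 3 and 4, with a log2 difference of 0.20 (limma adjusted p 0.580). The probe set shared by SCPL39 and AT3G56540 read 1.25, 1.25 and 1.11 in flight and 1.73, 1.47 and 1.55 on the ground in the same order, with groups that did not overlap and a log2 difference of -0.38 (SE 0.14, limma adjusted p 0.178). Both read below the array medians on all arrays, and their values cannot be given to any single gene.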
